A study of Mus musculus with 8 samples.

Results

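Selenoproteins carry selenocysteine, an amino acid built into the chain at a UGA codon that otherwise ends translation. Of the family outside the deiodinases, 10 genes were taken by name from the deposited transcript table: the glutathione peroxidases Gpx1, Gpx3 and Gpx4, the thioredoxin reductases Txnrd1, Txnrd2 and Txnrd3, selenoprotein P (Sepp1, now Selenop), selenoprotein W (Sepw1, now Selenow), Sephs2 and Secisbp2. They were 10 of 23767 genes and had 25 of 49139 transcripts, and for each gene the transcript with the highest average of both group means was used. The RNA came from whole testes of mice at postnatal day 5, all on the 129/SVJ background. The 8 samples were 4 wild type and 4 labelled Dio3KO. Dio3 is the deiodinase gene whose product, itself a selenoprotein, inactivates thyroid hormones, and the study by its title asked which genes of the neonatal testis answer to thyroid hormone. The labels give no more on the allele than the name Dio3KO, nor whether animals were pooled, and the extraction text names hypothalami although the tissue label says testis.

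The values were group means in RPKM (reads normalised to transcript length and sequencing depth) with a coefficient of variation (CV) per group, so each level below is a mean made by the authors and no value of an individual animal enters. Read numbers per library are unknown. The background is formed by the 15225 genes that reached 1 RPKM in at least one group's mean. Log2 ratios are Dio3KO-labelled over wild type, of means with 0.5 RPKM added, with a standard error (SE) computed from the CVs. "Rose" and "fell" are written only where the adjusted p of the authors' deposited table was below 0.05. Dio3 itself was higher in the group labelled Dio3KO (0.52 and 2.95 RPKM), so its level does not check the label. The samples carried testis RNA: 10 Sertoli cell markers summed to 1824 and 2040 RPKM in wild-type and Dio3KO-labelled testes, while 12 hypothalamus and brain markers summed to 10.5 and 10.4 RPKM. Of these 12, Nkx2-1, at 4.72 and 6.45 RPKM, had the highest level. The neuropeptide genes Agrp (1.49 and 0.77 RPKM) and Pomc (0.95 and 0.93 RPKM) were detected at low levels, and Avp, Oxt and Hcrt were at 0.06 RPKM or less in both groups. In whole testes, fewer cells of a type and less RNA per cell cannot be told apart.

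The insertion of selenocysteine needs a stem-loop in the mRNA, the protein Secisbp2 that binds it, a dedicated elongation factor and a transfer RNA whose selenium comes from selenophosphate, the product of Sephs2. The enzymes made this way handle peroxides (glutathione peroxidases) or keep thioredoxin reduced (thioredoxin reductases), and selenoprotein P carries selenium between organs. The testis is known to hold selenium tightly. It takes up selenoprotein P through the receptor Lrp8, and the glutathione peroxidase Gpx4 is a structural component of sperm.

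The label was checked against GENCODE M21, an annotation of GRCm38, the assembly also called mm10, which the submitters' processing notes name. It marks selenocysteine codons in 24 genes: 3 deiodinases, 9 of the 10 genes above and 12 others. Secisbp2 has none, being a factor of the machinery and not a selenoprotein. The coding sequence around the first selenocysteine codon of each of the 9 genes is shown because this codon is what defines the family. Each line runs 5′ to 3′ from 12 bases before the codon to 15 bases after it or to the end of the stop codon, with the selenocysteine codon in capitals.
Gpx1: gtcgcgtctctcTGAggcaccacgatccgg
Gpx3: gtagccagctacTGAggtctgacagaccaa
Gpx4: gtggcctcgcaaTGAggcaaaactgacgta
Txnrd1: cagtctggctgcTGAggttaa
Txnrd2: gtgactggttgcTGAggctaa
Txnrd3: cagaaaggctgcTGAggctag
Sepp1: cttcaagccagcTGAtacttgtgtcttctg
Sepw1: tattgtggagctTGAggctataagcccaag
Sephs2: ggcatgaagggcTGAggctgcaaggtcccc

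In all 3 thioredoxin reductases 1 codon stands between the selenocysteine codon and the stop codon, so that selenocysteine is the last but one residue. It is codon 498 of Txnrd1, 526 of Txnrd2 and 614 of Txnrd3, and pairs of these windows share 12 to 13 of 18 bases besides the codon. In the glutathione peroxidases it lies in the first part of the protein, at codon 47 of 201 in Gpx1, 73 of 226 in Gpx3 and 73 of 197 in Gpx4, and their windows share 11 to 14 of 27 bases. Sepw1 has it at codon 13 of 88 and Sephs2 at codon 63 of 452. In 8 of the 9 genes the codon is followed by GG, and Sepp1 is the exception. Sepp1 is also the only one of them with more than 1 selenocysteine codon: it has 10, at codon 59 and at 9 places from codon 259 on. The last 5 are shown with the stop codon, since this density is what makes the protein a carrier of selenium.
Sepp1, codon 352 to the stop codon: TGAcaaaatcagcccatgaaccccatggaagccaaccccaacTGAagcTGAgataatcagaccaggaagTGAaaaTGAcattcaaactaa

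This stretch lies on the plus strand at chr15:3279621-3279710 (GRCm38). The first selenocysteine codons lie in coding exons at chr9:108339451-108339453 for Gpx1, chr11:54907256-54907258 for Gpx3 and chr10:80054737-80054739 for Gpx4, all on the plus strand. Those of the thioredoxin reductases lie at chr10:82896037-82896039 for Txnrd1, chr16:18477772-18477774 for Txnrd2 and chr6:89674789-89674791 for Txnrd3, also on the plus strand. That of Sepp1 is at chr15:3274848-3274850 on the plus strand, and those of Sepw1 and Sephs2 are at chr7:15920464-15920466 and chr7:127273731-127273733 on the minus strand. Secisbp2 (ENSMUSG00000035139.14) is at chr13:51651697-51684044, plus strand.

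Of the 10 genes, Sepp1 and Gpx3 rose, Txnrd1 and Sephs2 fell, and Gpx1, Gpx4, Txnrd2, Txnrd3, Sepw1 and Secisbp2 did not pass. Over the whole background, 14.0% of genes rose and 15.9% fell, so 2 of 10 in each direction is a share near that of all genes. The median log2 ratio of the 10 genes was -0.02, beside -0.05 for all genes tested. The limma test, moderated across all genes and computed from the means and CVs, called the same 4 genes in the same directions, against a background of 18.6% higher and 23.2% lower. At a stricter adjusted p of 0.01 only Txnrd1 was left, 1 of 10 falling against 4.94% of all genes, and 0 of 10 rising against 4.30%.

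**Figure D1:**
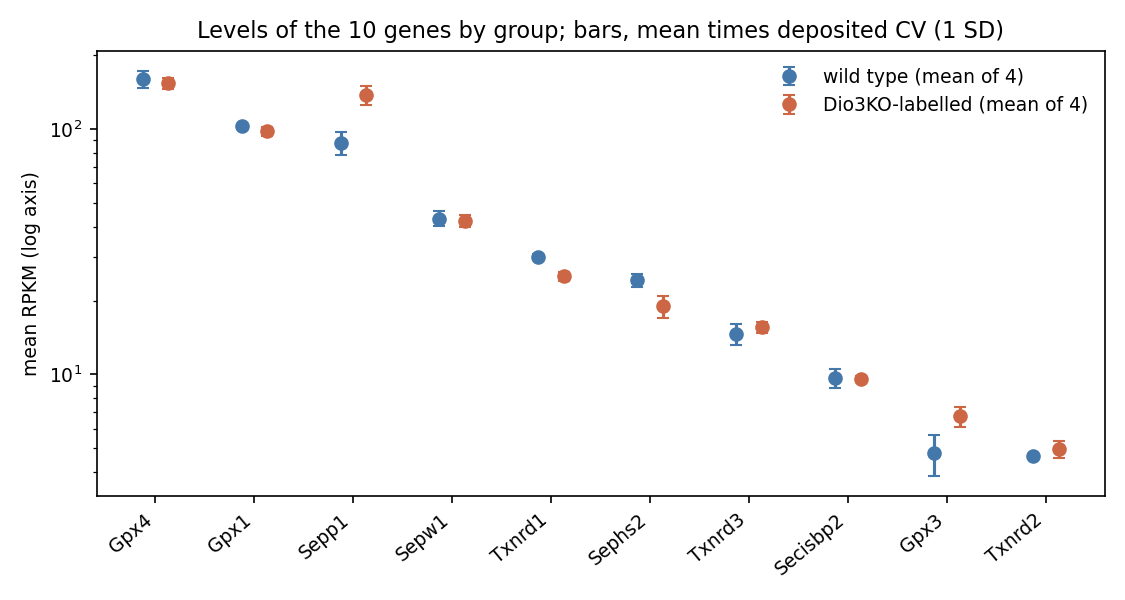
Mean RPKM (log axis) of the 10 genes in wild-type and Dio3KO-labelled testes, ordered by the wild-type level; points are the authors' means over 4 samples and bars are 1 SD, computed as mean times deposited CV. Sepp1 moves from 87.7 to 138 RPKM, while Gpx4, Gpx1 and Sepw1 have nearly the same level in both groups.

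Sepp1, the secreted carrier of selenium, had the largest log2 ratio of the 10. Its mean was 87.7 RPKM (CV 0.11) in wild-type testes and 138 RPKM (CV 0.09) in Dio3KO-labelled testes, 57.3% higher. The log2 ratio was 0.65 ± 0.10 (SE, adjusted p = 0.0107, authors' deposited table). None of 4 values can lie more than 1.5 SD from their mean, so no wild-type sample can have been above 103 RPKM and no Dio3KO-labelled sample below 118 RPKM. The groups of Sepp1 therefore cannot overlap, as was the case with the Dio3KO-labelled group higher for 12.1% of all genes tested. Its 3 deposited transcripts, which share exons, had the same ratio of means, 1.57. The 439 bases by which Ccdc152 reaches over Sepp1 on the opposite strand are exonic in both genes, and no source says if strand was used in counting. Ccdc152 was at 2.37 and 2.64 RPKM, far below Sepp1.

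Lrp8, the receptor that takes up selenoprotein P in the testis, rose with it, from 2.44 RPKM (CV 0.28) to 24.3 RPKM (CV 0.15). Its log2 ratio was 3.08 (adjusted p = 0.0111, authors' deposited table). Of the 5 genes listed for selenium uptake and binding, 4 reached 1 RPKM and Lrp8 alone passed. The shares of all genes tested were 14.0% rising and 15.9% falling. Lrp1, a broad scavenger receptor of the same family, was at 55.5 and 70.0 RPKM (adjusted p = 0.1115, authors' deposited table). The limma test did call Lrp1 higher, with a limma adjusted p of 0.0216, as it did 18.6% of all genes tested. The selenium-binding protein gene Selenbp1 was at 36.9 RPKM in both groups. Lrp2, the receptor for selenoprotein P in kidney, was at 0.30 and 0.34 RPKM.

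By their median log2 ratio, markers of macrophages, endothelial cells and Leydig cells were higher in the same group as Sepp1. Over all genes tested, 14.0% rose and 15.9% fell. Of 12 macrophage markers tested, 9 rose and 0 fell, and their median log2 ratio was 0.98. The summed level of all 13 listed was 89.2 RPKM in wild-type and 179 RPKM in Dio3KO-labelled testes. Csf1r, the receptor that defines the lineage, rose from 7.85 to 15.9 RPKM, and none of the 13 was at 0. Of 10 endothelial markers, 5 rose and 0 fell, and the sum went from 77.7 to 101 RPKM. The part of these cell types in the rise of Sepp1 was not tested.

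Of the 3 glutathione peroxidases, Gpx3 alone passed, and the difference between the genes was not tested. Gpx4, which reduces lipid peroxides within membranes, was the most abundant of the 10 genes, at 159.6 RPKM (CV 0.08) in wild-type and 154 RPKM (CV 0.05) in Dio3KO-labelled testes. Its log2 ratio was -0.06 ± 0.07 (SE, adjusted p = 0.489, authors' deposited table), and its 95% limma interval ran from -0.20 to 0.09. Gpx1, the cytosolic peroxidase, was at 103 RPKM (CV 0.02) and 97.9 RPKM (CV 0.04, adjusted p = 0.1723, authors' deposited table). Its 95% limma interval ran from -0.18 to 0.03, and both of these intervals include 0. Scaling both groups to equal sums over all transcripts turned the log2 ratios of Gpx1 and Gpx4 to 0.03 and 0.04, so no direction is given for either gene. A pseudogene named for Gpx4 (Gpx4-ps2) is annotated, and reads it may share with Gpx4 could not be separated here.

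Gpx3, the secreted peroxidase, had far less RNA, 4.78 RPKM (CV 0.19) in wild-type and 6.74 RPKM (CV 0.09) in Dio3KO-labelled testes. It rose by 41.0%, a log2 ratio of 0.46 ± 0.14 (SE, adjusted p = 0.0499, authors' deposited table), just under the threshold. The limma adjusted p was 0.0084. The CVs allow a wild-type sample of up to 6.18 RPKM and a Dio3KO-labelled sample down to 5.78 RPKM, so the groups may overlap. Gpx3 is also known as an epididymal gene. Of 6 epididymis markers in the table, 2 reached 1 RPKM, Lcn8 was at 0.03 and 0.02 RPKM, and the sum of all 6 was 1.86 and 2.25 RPKM. Crisp1 was higher in the same group as Gpx3, at 0.15 RPKM (CV 0.83) and 1.08 RPKM (CV 0.86). For Crisp1 the adjusted p was 0.2228 in the authors' deposited table and 0.0229 with limma, while Cst11 was at 1.63 and 1.09 RPKM. The part of epididymal RNA in the rise of Gpx3 was not tested. The epididymal peroxidase Gpx5 was listed at 0 in wild-type testes and at 0.02 RPKM in the other group.

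Among the peroxidases that use cysteine in place of selenocysteine, Gpx7, of the endoplasmic reticulum, fell from 26.2 to 23.1 RPKM (adjusted p = 0.028, authors' deposited table). Gpx8, its relative in the same compartment, did not pass, at 71.8 and 78.1 RPKM. In the list of the glutathione system to which both belong, 13 of 16 genes reached 1 RPKM, 0 rose and 2 fell. The shares of all genes tested were 14.0% and 15.9%. The list median was -0.07 on the log2 scale. The limma test called 1 higher, Slc7a11, and 2 lower, Gpx7 and Glrx5, beside 18.6% and 23.2% of all genes tested. Slc7a11 and Glrx5 are named after their values were seen. Besides Gpx7, Glo1, which detoxifies methylglyoxal, fell from 63.6 to 58.4 RPKM (adjusted p = 0.032, authors' deposited table). Its limma adjusted p was 0.0508, so limma did not call it. The glutaredoxin Glrx3, at 90.4 and 82.5 RPKM, did not pass.

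Of the thioredoxin reductases, Txnrd1 alone passed. This cytosolic enzyme fell from 30.05 RPKM (CV 0.03) to 25.1 RPKM (CV 0.04), or by 16.3%, a log2 ratio of -0.25 ± 0.04 (SE). The adjusted p was 0.0082 in the authors' deposited table, the smallest of the 10 genes although the change was smaller than that of Sepp1, Gpx3 or Sephs2. No wild-type sample can have been below 28.5 RPKM and no Dio3KO-labelled sample above 26.8 RPKM, so the groups cannot overlap, as with the Dio3KO-labelled group lower for 12.8% of all genes tested. Of its 5 transcripts, 4 fell by 16.3% to 16.7%, and uc007gkd.1, at 22.2 and 18.9 RPKM, did not pass (adjusted p = 0.0717, authors' deposited table).

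Txnrd2, the mitochondrial form, was the least abundant of the 10 genes in both groups, at 4.65 RPKM (CV 0.02) and 4.97 RPKM (CV 0.08). Its adjusted p was 0.2961 in the authors' deposited table, and the 95% limma interval of its log2 ratio ran from -0.06 to 0.24. Its transcripts did not share a direction: 3 had log2 ratios from 0.09 to 0.11, and uc007ynz.1 had -0.04, none of them past the threshold. Txnrd3, known for its high expression in testis and in developing sperm, was at 14.6 RPKM (CV 0.10) and 15.6 RPKM (CV 0.05). Its adjusted p was 0.3788 in the authors' deposited table, with a 95% limma interval from -0.07 to 0.25. The intervals of Txnrd2 and Txnrd3 lie above that of Txnrd1, which ran from -0.36 to -0.15, but the difference between the genes was not tested.

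**Figure D2:**
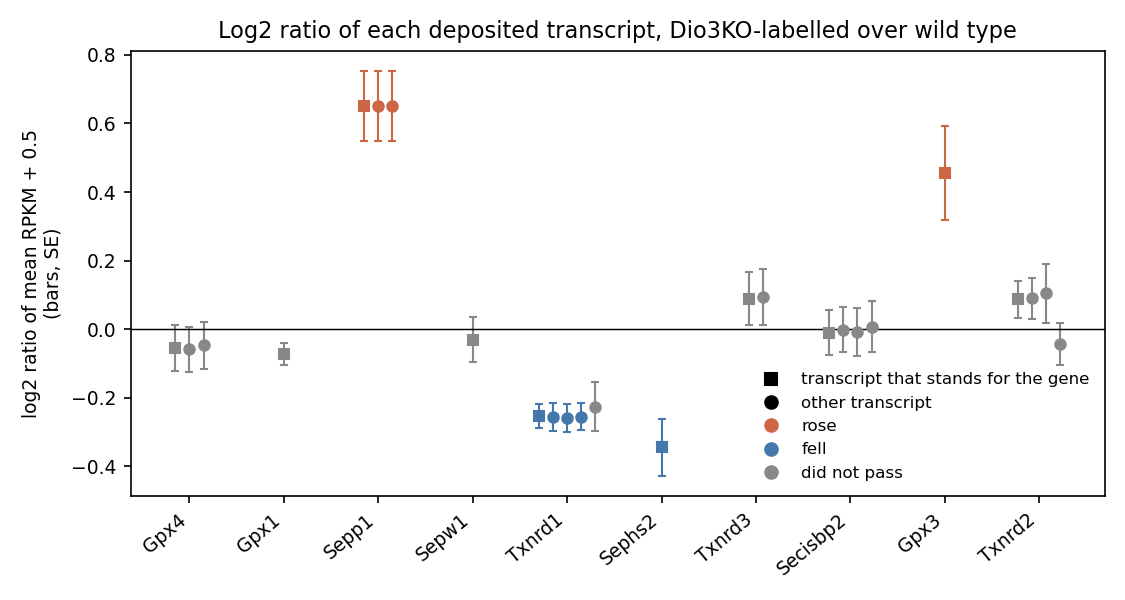
Log2 ratio (Dio3KO-labelled over wild type, of mean RPKM with 0.5 added) of all 25 deposited transcripts of the 10 genes, with SE bars; squares mark the transcript that stands for its gene. The 3 Sepp1 transcripts lie at 0.65, the 5 Txnrd1 transcripts between -0.26 and -0.23, and 1 of the 4 Txnrd2 transcripts lies below 0.

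Of 16 listed partners, all of which reached 1 RPKM, 3 rose and 3 fell, shares near the 14.0% and 15.9% of all genes. The list median was -0.05 on the log2 scale, to this precision that of all genes. Txnip, the inhibitor that binds thioredoxin, rose from 152 to 236 RPKM (adjusted p = 0.0297, authors' deposited table). The subunits Rrm1 and Rrm2 of ribonucleotide reductase, which makes DNA precursors with electrons from thioredoxin, both fell, Rrm1 from 70.1 to 52.4 RPKM and Rrm2 from 23.9 to 17.3 RPKM. Rrm2b, another subunit of that enzyme, rose from 4.55 to 5.43 RPKM (adjusted p = 0.0455, authors' deposited table). Prdx4, a peroxiredoxin of the secretory pathway, fell from 133 to 112 RPKM, and Prdx6, a cytosolic peroxiredoxin, rose from 70.5 to 100.1 RPKM (adjusted p = 0.0298, authors' deposited table). Rrm2b and Prdx6 are named after their values were seen. The peroxiredoxins Prdx2 (359 and 351 RPKM) and Prdx1 (314 and 291 RPKM) did not pass.

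The fall of Txnrd1 stood beside that of proliferation markers, of which 8 of 8 fell, where 15.9% of all genes tested fell. The markers had a sum of 397 RPKM in wild-type and 239.8 RPKM in Dio3KO-labelled testes and a median log2 ratio of -0.72. Txnrd1, with a log2 ratio of -0.25, fell by less than each of these markers, whose log2 ratios ran from -0.84 to -0.60. Germ cell markers had 0 of 9 past the threshold, where 14.0% of all genes tested rose and 15.9% fell. The sum of all 10 listed was 422 and 382 RPKM. The median log2 ratio of the 9 was -0.24. The limma test called 4 of the 9 lower and 0 higher, beside 23.2% and 18.6% of all genes tested. The part of cell composition in these values was not tested.

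Sepw1, a small muscle- and brain-enriched selenoprotein with a redox motif, was at 43.2 RPKM (CV 0.07) and 42.3 RPKM (CV 0.06). Its log2 ratio was -0.03 ± 0.07 (SE, adjusted p = 0.6222, authors' deposited table), and its 95% limma interval ran from -0.17 to 0.11. The sign turned with either rescaling of the groups, to 0.02 with the median ratio of all genes set to 0 and to 0.07 with equal sums, so no direction is given.

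Sephs2, which makes the selenium donor and is itself a selenoprotein, fell from 24.2 RPKM (CV 0.06) to 18.9 RPKM (CV 0.10), or by 21.7%. The log2 ratio was -0.34 ± 0.08 (SE, adjusted p = 0.0278, authors' deposited table). The CVs allow a wild-type sample down to 21.8 RPKM and a Dio3KO-labelled sample up to 21.9 RPKM, so a small overlap of the groups is possible. Its paralog Sephs1, which lacks selenocysteine and does not make the donor, fell by a like share, from 21.8 RPKM (CV 0.05) to 17.3 RPKM (CV 0.03). For Sephs1 the log2 ratio was -0.32 and the adjusted p 0.0164 in the authors' deposited table.

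Secisbp2, which binds the stem-loop of selenoprotein mRNAs, was at 9.64 RPKM (CV 0.09) and 9.57 RPKM (CV 0.03). Its log2 ratio was -0.01 ± 0.07 (SE, adjusted p = 0.7501, authors' deposited table), and its 95% limma interval ran from -0.16 to 0.14. Its 4 transcripts had log2 ratios between -0.01 and 0.01. Its relative Secisbp2l was at 26.4 and 31.3 RPKM (adjusted p = 0.0782, authors' deposited table), with a limma adjusted p of 0.0203.

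Of the 12 genes listed for selenocysteine synthesis and insertion, apart from Sephs2 and Secisbp2, 0 rose and 5 fell. The shares of all genes tested were 14.0% and 15.9%. For 2 of the 12 the groups cannot overlap, with the Dio3KO-labelled group lower, as for 12.8% of all genes tested. The list median was -0.13 on the log2 scale. The limma test called 1 higher, Secisbp2l, and 6 lower, beside 18.6% and 23.2% of all genes tested. Pstk, the kinase that phosphorylates the serine carried by the transfer RNA, fell from 17.9 to 15.3 RPKM. Rpl30 and Eif4a3, better known from the ribosome and from splicing, are also known to bind the stem-loop. Rpl30 fell from 553 to 417 RPKM (adjusted p = 0.0045, authors' deposited table), and Eif4a3 fell from 106 to 92.0 RPKM. Reads that Rpl30 may share with processed copies of ribosomal protein genes could not be separated here. Sars, which loads serine on the transfer RNA, was the other gene of this list that fell, from 60.8 to 53.9 RPKM, and it is named after its value was seen. Nucleolin (Ncl), at 24.9 and 23.1 RPKM, did not pass.

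By level, the order in wild-type testes was Gpx4, Gpx1, Sepp1, Sepw1, Txnrd1, Sephs2, Txnrd3, Secisbp2, Gpx3 and Txnrd2. Neighbours in this order differed by more than the sum of their SDs except Gpx3 and Txnrd2, at 4.78 and 4.65 RPKM. In Dio3KO-labelled testes Sepp1 stood above Gpx1, and its distance from Gpx4, 15.7 RPKM, was within the sum of their SDs, 20.1 RPKM. The other places were the same in both groups. Among all genes tested, Gpx4 was at percentile 97.1 of the wild-type level and Txnrd2 at percentile 26.1.

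Of the 12 other annotated selenoprotein genes, 10 had a row by name and 9 reached 1 RPKM, of which 1 rose, 1 fell and 7 did not pass, shares no higher than the 14.0% and 15.9% of all genes. Their median log2 ratio was 0.02. Selenos, a membrane protein that helps to clear misfolded proteins from the endoplasmic reticulum, rose from 29.1 RPKM (CV 0.06) to 37.0 RPKM (CV 0.04). Its log2 ratio was 0.34 (adjusted p = 0.0084, authors' deposited table). Selenoh, a nuclear selenoprotein, fell from 114 RPKM (CV 0.06) to 80.1 RPKM (CV 0.08). Its log2 ratio was -0.51 (adjusted p = 0.0072, authors' deposited table). Both had groups that cannot overlap, with the Dio3KO-labelled group higher for Selenos and lower for Selenoh. This was the case for 12.1% (higher) and 12.8% (lower) of all genes tested.

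Selenot, a membrane protein of the endoplasmic reticulum, was at 34.0 and 40.4 RPKM (adjusted p = 0.0533, authors' deposited table), with a limma adjusted p of 0.0057. Selenok (50.7 and 52.7 RPKM) and Selenom (23.4 and 23.3 RPKM), of the same compartment, did not pass. Neither did the methionine sulfoxide reductase Msrb1 (18.6 and 18.9 RPKM), Selenoo (13.5 and 12.9 RPKM), Selenon (10.2 and 10.9 RPKM) or the phospholipid synthesis enzyme Selenoi (9.04 and 8.21 RPKM). Gpx2, the gut peroxidase, was at 0.16 and 0.06 RPKM and was left out of the counts. A transcript deposited under the date 15-Sep was at 136 RPKM (CV 0.01) and 147 RPKM (CV 0.05, adjusted p = 0.0988, authors' deposited table). The only current or older RefSeq symbol that reads as that date is Sep15, the older symbol of Selenof, and the row was kept out of the counts because its symbol is lost. Selenov was not matched to a row.

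**Figure D3:**
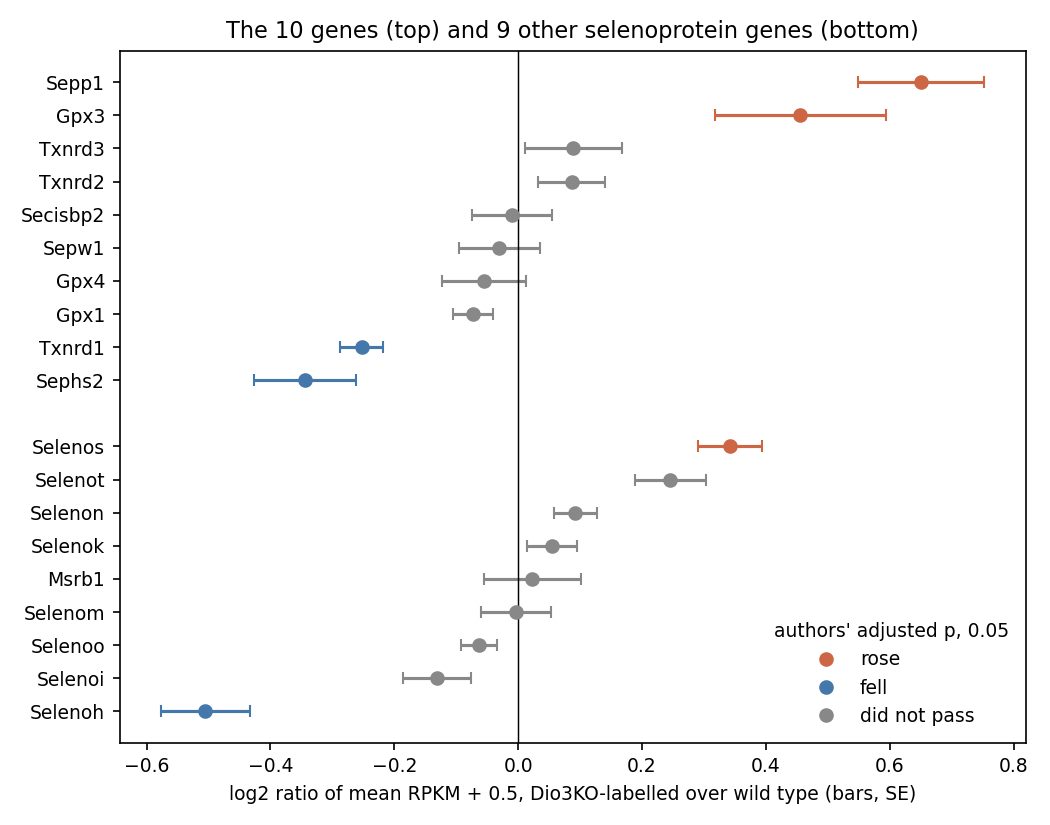
Log2 ratio (Dio3KO-labelled over wild type, of mean RPKM with 0.5 added) with SE bars of the 10 genes (top) and of 9 other selenoprotein genes with at least 1 RPKM (bottom), coloured by the adjusted p of the authors' deposited table at 0.05. Ratios run from -0.51 for Selenoh to 0.65 for Sepp1, and 13 of the 19 genes did not pass.

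Several antioxidant enzymes that need no selenium rose. Of 7 genes of superoxide dismutases, catalase and methionine sulfoxide reductases, 5 rose and 0 fell, beside 14.0% and 15.9% of all genes tested. For 3 of the 7 the groups cannot overlap, with the Dio3KO-labelled group higher, as for 12.1% of all genes tested. The list median was 0.16 on the log2 scale. Sod3, the extracellular superoxide dismutase, rose from 7.36 RPKM (CV 0.12) to 15.6 RPKM (CV 0.13, adjusted p = 0.0142, authors' deposited table). Sod2, the mitochondrial form, rose from 17.7 to 19.9 RPKM, while Sod1, the cytosolic form, did not pass, at 300.4 and 296 RPKM. Msrb3 and Msrb2, which use no selenocysteine for the reaction that Msrb1 carries out, rose from 22.9 to 32.8 RPKM and from 9.71 to 11.1 RPKM. Catalase (Cat) rose from 22.8 to 25.1 RPKM (adjusted p = 0.048, authors' deposited table) and is named after its value was seen. Msra, which reduces the other stereoisomer of methionine sulfoxide, did not pass, at 8.23 and 8.56 RPKM.

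Txnrd1 is a known target of the oxidant-responsive factor Nrf2, so the list of that pathway was set beside it. Of 18 genes, 3 rose and 1 fell, beside 14.0% and 15.9% of all genes tested, and the median log2 ratio was 0.13. The limma test called 6 higher and 1 lower, beside 18.6% and 23.2% of all genes tested. Nfe2l2, the gene of Nrf2 itself, rose from 41.6 to 57.2 RPKM (adjusted p = 0.0079, authors' deposited table), and the export pump gene Abcc1 rose from 26.2 to 40.9 RPKM. Fth1, a ferritin chain, rose from 220 to 241 RPKM. Nqo1, a quinone reductase often read as a marker of the pathway, fell like Txnrd1, from 7.29 to 5.94 RPKM (adjusted p = 0.0065, authors' deposited table). Ftl1 (457 and 464 RPKM) and Taldo1 (78.1 and 92.8 RPKM) did not pass.

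**Figure D4:**
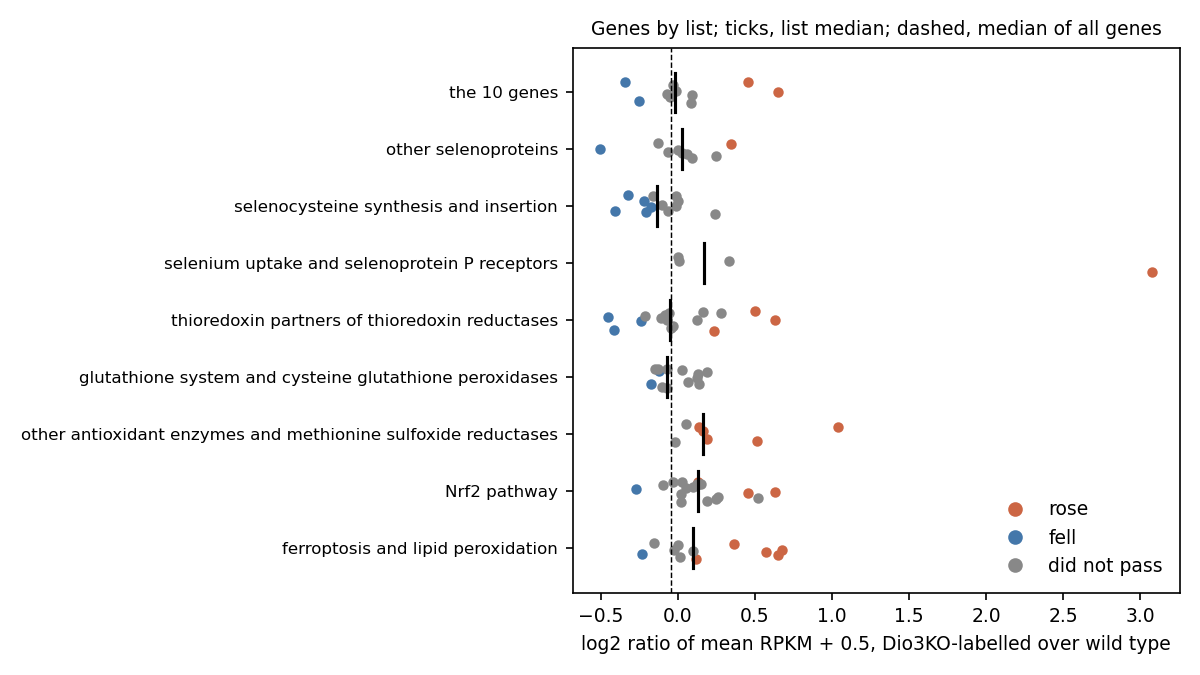
Log2 ratio (Dio3KO-labelled over wild type, of mean RPKM with 0.5 added) of each gene of at least 1 RPKM in the lists around the selenoproteins, with the median of each list as a tick and that of all genes tested (-0.05) as a dashed line. The list of selenocysteine synthesis and insertion has its median at -0.13 and that of selenium-independent antioxidant enzymes at 0.16, and Lrp8 stands apart at 3.08.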

How the data were processed

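RNA sequencing of testes was deposited as 1 table. Its values are RPKM means and the ratio of SD to mean (CV) per group, with an adjusted p-value, all made by the authors, per the file headers. How reads were counted, with or without strand, and by which test p was obtained is not given in the sources used here. FastQC, Novoalign 2.08 and mm10 stand in the submitters' processing notes.

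The table's 147417 lines held each transcript 3 times, and repeats were dropped. Symbols were matched to RefSeq and GENCODE (18079 current, 2558 older and 3945 unmatched of 24582). Genes under 1 RPKM in both groups were dropped. Means were compared on the log2(RPKM + 0.5) scale, which understates changes of low genes, with SEs by the delta method from the deposited CVs. As a second test, variances from the CVs (0.00 set to 0.0025) were moderated with limma 3.58.1 in R 4.3.3 (squeezeVar, trend and robust, 6 residual degrees of freedom) and p-values adjusted by Benjamini-Hochberg over all 15225 genes. This was tested on simulated data. The p-values measure the spread between samples that the design text calls biological replicates. Depth per sample is unknown, and no other column of sample values (0) was set aside.

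The genes and lists were chosen with earlier results of these data known. Named are the 10 genes, the other selenoproteins, and per list at most 4 passing genes, by smallest p, and at most 2 genes that did not pass, by highest level.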

Additional observations from a re-analysis of the deposited data

How the results depend on the processing

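The settings tried were a pseudocount of 0.1 or 1, both groups rescaled to a median ratio of 0 or to equal sums, transcripts summed, the best transcript taken by the wild-type mean, a minimum of 5 RPKM or none, a stricter threshold and limma. Sepp1, Gpx3, Txnrd1 and Sephs2 kept their direction under both rescalings. Sepp1 and Txnrd1, which have several transcripts, also kept it with transcripts summed, which leaves no test. The pseudocount, the minimum level, the threshold and limma cannot turn a direction. The best transcript by the wild-type mean was the same for each of these genes. At an adjusted p below 0.01 (authors' deposited table), 0 of the 10 genes rose (4.30% of all genes) and 1 fell (4.94%), which was Txnrd1. Gpx3 (0.46, p 0.0499), Sepp1 (0.65, p 0.0107) and Sephs2 (-0.34, p 0.0278) then no longer passed. At that threshold 1 gene was left in the list of selenocysteine synthesis and insertion, 0 in selenium uptake, 1 among the thioredoxin partners, 0 in the glutathione system, 1 among other antioxidant enzymes and 1 in the ferroptosis list. With limma, selenium uptake had 2 calls and the Nrf2 list 7, where 18.6% of all genes were called higher and 23.2% lower. Equal sums, a shift of 0.10 on the log2 scale, moved the median of the 10 genes to 0.076 and turned the sign of Gpx1 (0.026), Gpx4 (0.044), Sepw1 (0.068) and Secisbp2 (0.085). The median ratio set to 0 turned that of Sepw1 (0.018) and Secisbp2 (0.036). No paired analysis was possible because the values used here are group means, and leaving out replicates was not run for the same reason. Unknown depth means that no counting error can be given for low genes such as Txnrd2 and Gpx3. CVs are given to 2 decimals, which limits the SE of genes with a CV of 0.01 or 0.02.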

Other observations

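Genes of iron handling and lipid peroxidation, the process that Gpx4 holds in check, were listed beside the selenoproteins. Of 15 genes, 11 reached 1 RPKM, of which 5 rose and 1 fell, beside 14.0% and 15.9% of all genes tested. The list median was 0.10 on the log2 scale, beside -0.05 for all genes tested. Acsl4, which feeds polyunsaturated fatty acids into membrane lipids, rose from 19.2 RPKM (CV 0.10) to 28.7 RPKM (CV 0.09, adjusted p = 0.012, authors' deposited table). Sat1, a polyamine acetyltransferase, rose from 21.1 to 33.2 RPKM, and Aifm2, a reductase that protects lipids without Gpx4, rose from 10.4 to 13.5 RPKM. Dhodh, a mitochondrial enzyme of pyrimidine synthesis with a like protective role, fell from 10.8 to 9.10 RPKM. Slc40a1, the iron exporter, rose from 14.4 to 23.3 RPKM and Vdac2 from 118 to 128 RPKM, both named after their values were seen. Slc3a2, at 81.4 and 81.6 RPKM, and Vdac3, at 383 and 344 RPKM, did not pass. The limma test called 4 higher and 1 lower, beside 18.6% and 23.2% of all genes tested. Vdac2, with a limma adjusted p of 0.0684, was not called by limma. Slc40a1 and Sat1 are also expressed in macrophages, whose markers were higher in the same group, and their part in these rises was not tested.

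The activating deiodinase genes, also selenoproteins, had little RNA in these testes. Dio1 was at 0.07 RPKM in both groups, and Dio2 was at 0.27 RPKM (CV 0.49) in wild-type and 0.47 RPKM (CV 0.22) in Dio3KO-labelled testes and did not pass.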
